A study of Mus musculus with 6 samples.

Results

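The 26S proteasome genes were examined in liver of C57BL/6 mice by RNA sequencing, in mice whose high fat (Western) diet held dabigatran etexilate and in mice on that diet alone. Dabigatran etexilate is an oral prodrug of dabigatran, a direct inhibitor of thrombin. Members were taken by symbol: all genes named Psma, Psmb, Psmc or Psmd with a number, without the immunoproteasome genes Psmb8, Psmb9 and Psmb10. This gave 36 of the 23291 listed genes, namely 8 core alpha, 8 core beta, 6 ATPase and 14 non-ATPase genes. The dabigatran group received 10 mg of the drug per gram of diet and the diet group none, both for 3 months. All mice carried the high fat diet, so the comparison is of drug within that diet. Each group has 3 deposited tables. Those of dabigatran replicates 0 and 1 hold identical values for every gene and were counted once, as replicate 1, which leaves 2 dabigatran and 3 diet libraries. The labels call the replicates separate samples and the series' design gives 3 mice per group; sex and age are not given in the labels used here.

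The proteasome degrades proteins tagged with ubiquitin. Its core is a barrel of stacked alpha and beta rings, in which 3 beta subunits carry the proteolytic sites. Its regulatory cap holds a base, which includes a ring of ATPases that unfold substrates, and a lid. Subunits of the cap recognise and strip ubiquitin. The subunits assemble in fixed numbers, with the help of chaperones that leave before the cap is complete. In mammals the transcription factor NFE2L1 raises many of these genes together when proteasome activity is short. Interferon induces 3 alternative beta subunits that replace the constitutive ones and form the immunoproteasome.

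NFE2L1 and its relative NFE2L2 bind the antioxidant response element. Upstream sequence (the 250 bases before a listed start, RefSeq, GRCm38.p6) was found for 29 of the 36 members, in 31 entries. A listed start can lie inside the gene span. The element's core TGACNNNGC, searched on both strands, occurred in 5 of the 31 entries (16.1%) and in 10.2% of all 32851 promoters of the same length. The 5 genes were Psmb5, Psmb6, Psmc6, Psmd9 and Psmd12. The ETS family core CCGGAAG occurred in 10 of 31 entries (32.3%, 9 genes) and in 6.9% of all promoters. Some of these matches lie inside the gene span by RefSeq coordinates. The Psmb6 sequence ends at 70525356, past the gene's start at 70525324, and its TGACNNNGC match lies at that end. The ETS matches of Psmd2, of an entry of Psma6 and of an entry of Psmc2 lie inside as well. The CCAAT box was found in 12 entries (38.7%, against 33.8%) and the E-box CACGTG in 2 (6.5%, against 6.0%). 4 of these upstream sequences are shown. They belong to the gene with the largest difference between the groups (Psmd9), to the catalytic subunits Psmb5 and Psmb6, and to an ATPase gene whose groups did not overlap (Psmc1). The catalytic subunit Psmb7 was not among the 29 genes searched. Psmc5, the other ATPase gene whose groups did not overlap, had neither TGACNNNGC nor CCGGAAG. Capitals mark TGACNNNGC in the first 3 and CCGGAAG, on the opposite strand, in Psmc1, and no match of one of this pair overlapped the other. A match describes the letters, not binding.
Psmd9 (chr5:123227940-123228189, plus strand): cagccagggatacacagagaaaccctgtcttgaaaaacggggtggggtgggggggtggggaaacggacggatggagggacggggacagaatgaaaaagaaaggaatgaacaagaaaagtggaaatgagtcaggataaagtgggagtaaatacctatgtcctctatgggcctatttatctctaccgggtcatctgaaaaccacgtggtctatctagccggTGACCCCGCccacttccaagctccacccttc
Psmb5 (chr14:54617996-54618245, minus strand): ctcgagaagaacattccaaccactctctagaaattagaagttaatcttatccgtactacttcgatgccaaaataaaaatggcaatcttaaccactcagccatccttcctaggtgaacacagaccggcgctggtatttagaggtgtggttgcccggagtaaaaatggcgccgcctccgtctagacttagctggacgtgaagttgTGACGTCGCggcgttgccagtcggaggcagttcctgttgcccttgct
Psmb6 (chr11:70525107-70525356, plus strand): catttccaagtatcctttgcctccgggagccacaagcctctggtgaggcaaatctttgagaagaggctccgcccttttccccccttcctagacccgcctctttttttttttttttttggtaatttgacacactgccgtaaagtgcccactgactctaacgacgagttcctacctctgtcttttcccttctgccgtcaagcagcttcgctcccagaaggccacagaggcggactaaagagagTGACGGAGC
Psmc1 (chr12:100109952-100110201, plus strand): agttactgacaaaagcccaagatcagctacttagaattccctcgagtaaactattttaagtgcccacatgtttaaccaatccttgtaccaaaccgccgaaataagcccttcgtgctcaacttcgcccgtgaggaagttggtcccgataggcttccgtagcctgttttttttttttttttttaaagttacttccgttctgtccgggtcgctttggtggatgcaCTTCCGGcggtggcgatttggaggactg

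No proteasome gene passed the test between the groups. Of the 36 members, 34 had at least 1 FPKM (fragments per kilobase of transcript and per unit of library depth) in at least 3 of the 5 libraries and were tested, and 0 of the 34 were called higher or lower by limma at an adjusted p under 0.05, against 0.429% of all 10247 tested genes (0.127% higher and 0.303% lower). At an unadjusted p under 0.05, 3 members were higher (6.87% of all tested genes) and 0 lower (9.13%; 16.0% in either direction). The median log2 difference, dabigatran minus diet, was 0.12 over the 34 members and 0.02 over all tested genes, and 27 of 34 members (79.4%) had positive values, against 51.9% of all tested genes. Without dabigatran replicate 2 the members' median was -0.05 and 15 of 34 were positive. The fitted fold lay between 0.8 and 1.25 in 28 members. The 95% interval of the log2 difference lay within a 2-fold change in either direction in 32 of 34 members. The same held for 58.8% of all tested genes, and for 75.8% of the 1118 genes whose mean level lay in the range of the mature subunits (31.5 to 134 FPKM). These intervals are not adjusted for the number of genes.

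Both dabigatran libraries lay above all diet libraries in 6 members (17.2% of all tested genes) and below them in 3 (17.2%), so the groups were apart in 9 of 34 (26.5%, against 34.4% of all tested genes). The 6 were Psma2, Psmc1, Psmc5, Psmd1, Psmd2 and Psmd9, and the 3 were Psma1, Psmd5 and Psmd10.

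**Figure D1:**
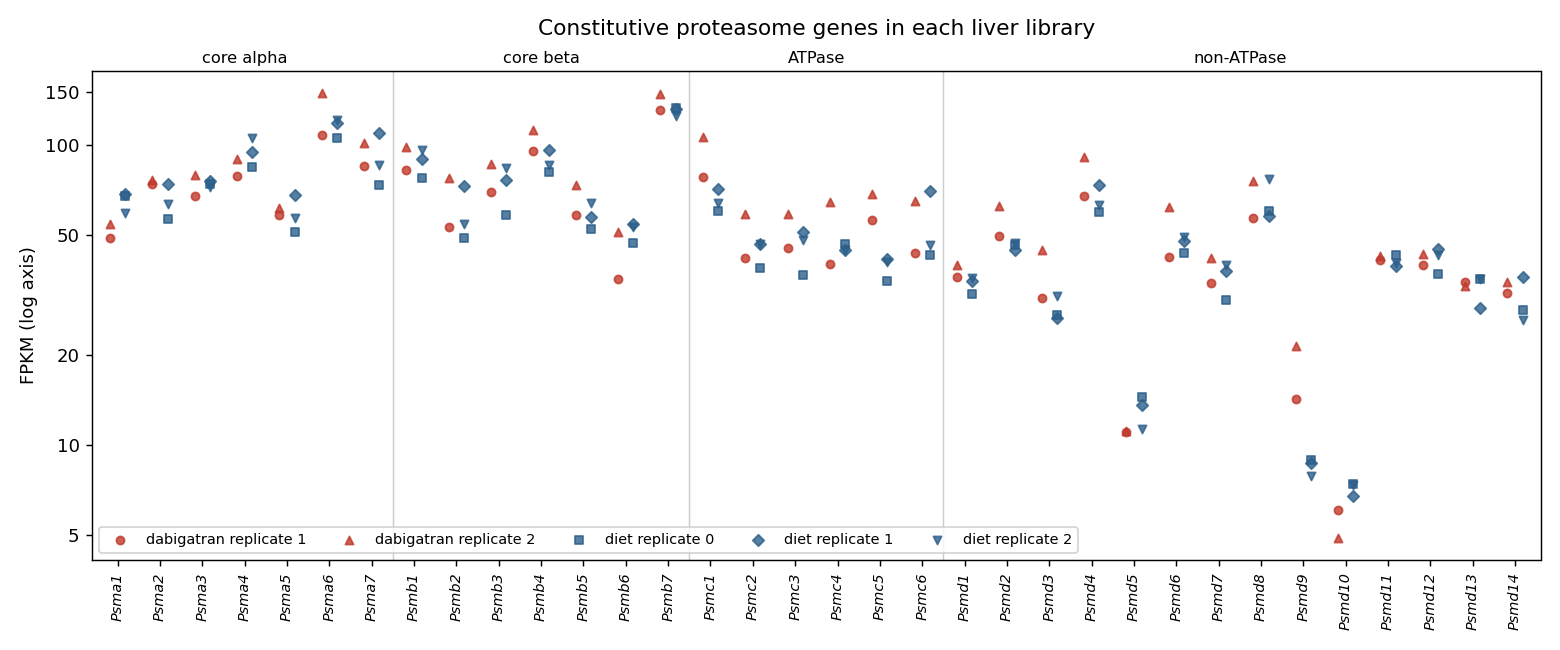
FPKM (log axis) of the 34 tested proteasome genes by class, with 1 point per library: dabigatran replicates 1 and 2 in red on the left of each gene, diet replicates 0, 1 and 2 in blue on the right. The groups overlap in 25 genes, while both Psmd9 values with dabigatran (14.3 and 21.4) stand above those of diet alone.

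Median levels differed between the parts of the complex, with overlapping ranges and no test of their order. FPKM is per length, but levels set side by side between genes are uncertain where transcript sequence is shared. Of the 50-base windows of their transcripts, Psmb5 shares 54.1% with other genes, and Psmb3 and Psmd2 share 17.8% each. Averaged over the 5 libraries, the core alpha genes had 59.3 to 120.3 FPKM (median 74.0, 7 genes; the lowest is Psma5, with 50.0% of its windows shared, mostly with Gm8394) and the core beta genes 48.4 to 134 (median 74.9, 7 genes). The ATPase genes had 46.6 to 76.2 FPKM (median 48.3, 6 genes). The other base genes, Psmd1, Psmd2 and Psmd4, had 35.9 to 71.0 (median 50.1). The lid genes had 31.5 to 65.7 (median 39.2, 8 genes). The assembly chaperone genes Psmd5, Psmd9 and Psmd10, whose products are not part of the finished complex, had 12.3, 12.2 and 6.50 FPKM. Between the highest (Psmb7) and the lowest (Psmd14) of the 31 mature subunits the mean level differed 4.25-fold. In this order, the ranges over 5 libraries overlapped between all but 2 of the 33 neighbouring pairs. The exceptions were Psmd14 over Psmd5 and Psmd9 over Psmd10.

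In the core alpha ring, which gates entry to the barrel, differences went both ways (7 tested, median log2 difference 0.04, range -0.33 to 0.22). Psma1 (chromosome 7, 114264550 to 114276116) had 48.8 and 54.7 FPKM in the dabigatran libraries, against 67.5, 68.4 and 59.3 in diet replicates 0, 1 and 2. Every dabigatran value was below every diet value, and the log2 difference was -0.33 ± 0.17 (SE, limma adjusted p = 0.391). Psma2 had 74.3 and 76.3 FPKM with dabigatran and 56.8, 73.9 and 63.7 with diet alone, a log2 difference of 0.22 ± 0.18 (SE, limma adjusted p = 0.577). The groups did not overlap, but dabigatran replicate 1 and diet replicate 1 lay within 1 FPKM of each other. Psma4 had 78.9 and 89.9 FPKM with dabigatran and 84.5, 94.7 and 105 with diet alone, so the groups overlapped (limma adjusted p = 0.684). The other 4 tested genes, Psma3, Psma5, Psma6 and Psma7, had log2 differences of -0.01 to 0.14. Psma8, the testis form, was listed at 0 in dabigatran replicate 1 and diet replicates 1 and 2, with 0.603 FPKM in dabigatran replicate 2 and 0.699 in diet replicate 0, and was not tested.

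The catalytic beta subunits were among the overlapping genes. Psmb5 (chromosome 14, 54614120 to 54617995), which carries the chymotrypsin-like site, had 58.2 and 73.7 FPKM with dabigatran and 52.5, 57.6 and 64.2 with diet alone (log2 difference 0.18 ± 0.19, SE, limma adjusted p = 0.681). Of the 50-base windows of its transcripts, 54.1% also occur in other genes, mostly Gm3375, so its level is uncertain. Psmb6 (chromosome 11, 70525324 to 70527858), with the caspase-like site, had 35.6 and 51.3 FPKM with dabigatran and 47.2, 54.5 and 53.3 with diet alone (log2 difference -0.27 ± 0.20, limma adjusted p = 0.560). Its value in dabigatran replicate 1 was the lowest of the 5 and that in replicate 2 lay inside the diet range. Psmb7 (chromosome 2, 38588046 to 38643952), with the trypsin-like site, was the most abundant member. It had 131 and 148 FPKM with dabigatran and 132, 132 and 125 with diet alone (log2 difference 0.10 ± 0.16, 95% interval -0.27 to 0.47). Dabigatran replicate 2 stood above the other 4 libraries, which lay close together. Psmb4, a structural subunit, had the smallest p of the class, with 95.2 and 112 FPKM in the dabigatran libraries and 81.1, 96.0 and 85.5 in the diet libraries (limma adjusted p = 0.539). Over the 7 tested beta genes the median log2 difference was 0.11, and the groups overlapped in every one of them. Psmb11, the thymus form, was listed at 0 in 4 libraries and had 0.101 FPKM in diet replicate 2.

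The ATPase genes had positive differences in 6 of 6 (51.9% of all tested genes were positive), with a median log2 difference of 0.19, and none passed the test. Without dabigatran replicate 2 the median was -0.02, and Psmc2, Psmc4 and Psmc6 had negative differences. Psmc5 (chromosome 11, 106256185 to 106263112) had 56.0 and 68.4 FPKM with dabigatran, against 35.1, 41.7 and 40.9 with diet alone. Both dabigatran values lay well above all diet values. The log2 difference was 0.66 ± 0.18 (SE, 95% interval 0.24 to 1.07, fold 1.57, limma adjusted p = 0.147). Psmc1 (chromosome 12, 100110202 to 100123364), a subunit that takes part in opening the gate of the core, had 78.2 and 107 FPKM with dabigatran and 60.3, 71.5 and 64.2 with diet alone. Its groups did not overlap (log2 difference 0.48 ± 0.19, SE, limma adjusted p = 0.279), and without dabigatran replicate 2 the difference was 0.26. Psmc3 had 45.5 and 58.7 FPKM with dabigatran and 36.8, 51.2 and 48.4 with diet alone, overlapping (limma adjusted p = 0.689). Psmc2, Psmc4 and Psmc6 had log2 differences of 0.18, 0.16 and 0.03.

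Among the non-ATPase genes, the lid and base genes had small differences and the assembly chaperones stood at both ends. The 8 lid genes had log2 differences of -0.01 to 0.39 (median 0.07) and their groups overlapped in all 8. Psmd3, a lid gene, had 30.9 and 44.8 FPKM with dabigatran and 27.1, 26.5 and 31.4 with diet alone (log2 difference 0.39 ± 0.21, SE, limma adjusted p = 0.409). Only dabigatran replicate 2 stood above the diet range for this gene. Psmd14, the deubiquitinase of the lid, had 32.1 and 34.9 FPKM with dabigatran and 28.1, 36.2 and 26.0 with diet alone (limma adjusted p = 0.730). The base genes Psmd1, Psmd2 and the ubiquitin receptor gene Psmd4 had log2 differences of 0.15, 0.27 and 0.26. The groups overlapped for Psmd4 but not for Psmd1 and Psmd2, as in 34.4% of all tested genes. For Psmd1 the margin was narrow, with 36.38 FPKM in dabigatran replicate 1 and 36.14 in diet replicate 2.

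Psmd9 (chromosome 5, 123228190 to 123250126), a chaperone that binds ATPase subunits during base assembly, had the largest difference of all members. It had 14.3 and 21.4 FPKM in the dabigatran libraries and 8.94, 8.70 and 7.88 in diet replicates 0, 1 and 2. The 3 diet values lay close together and far below both dabigatran values. The log2 difference was 1.00 ± 0.23 (SE, 95% interval 0.48 to 1.53, fold 2.00), and it did not pass over all genes (limma adjusted p = 0.0973). These values rest on 37 and 50 fragments with dabigatran and 27, 20 and 23 with diet alone. Without dabigatran replicate 1 the difference was 1.29, and without dabigatran replicate 2 it was 0.72. Each of these fits has 1 dabigatran library. Gm26745 on the opposite strand covers 25.5% of its exon bases, and the use of strand is not given in the sources used here, so reads of the pair may be mixed. The other base chaperones had opposite signs. Psmd10, also called gankyrin, had 6.06 and 4.91 FPKM with dabigatran and 7.43, 6.78 and 7.34 with diet alone (log2 difference -0.36 ± 0.21, SE, limma adjusted p = 0.444), and Psmd5 had 11.04 and 11.14 FPKM with dabigatran and 14.4, 13.6 and 11.3 with diet alone (log2 difference -0.22 ± 0.20, limma adjusted p = 0.612). In both genes every dabigatran value was below every diet value, for Psmd5 by a narrow margin.

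**Figure D2:**
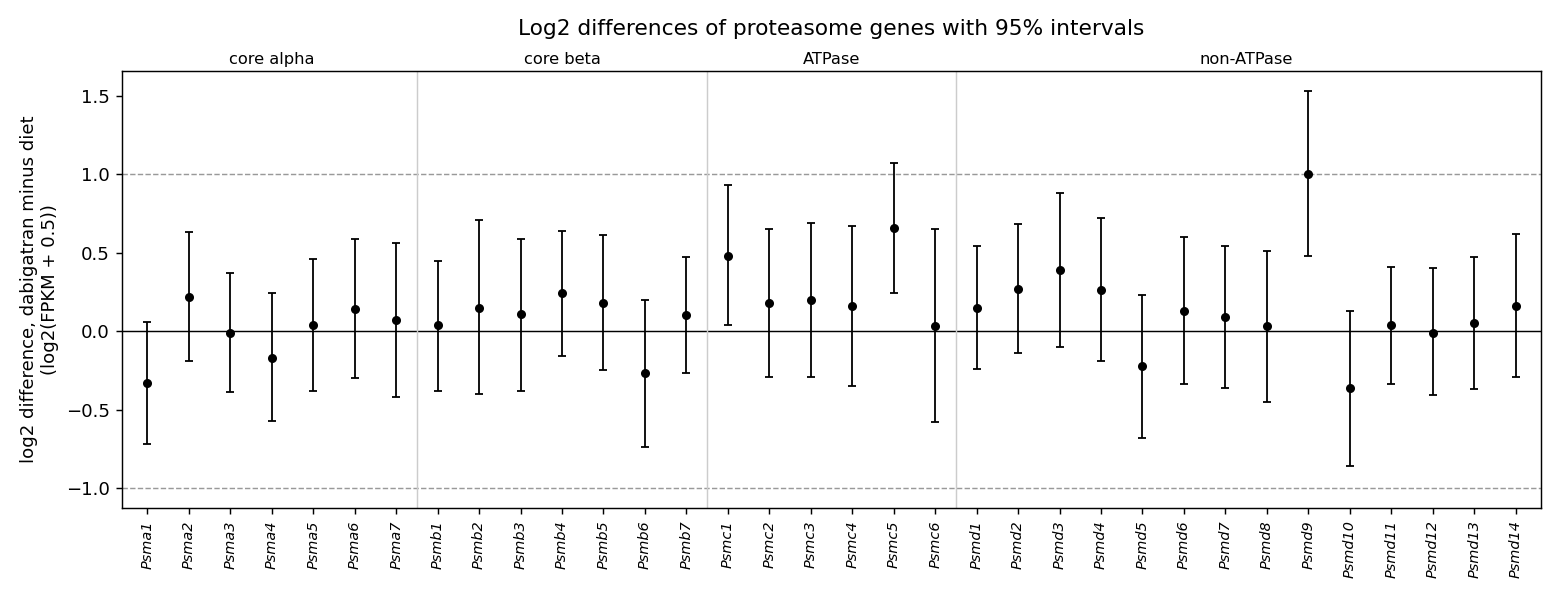
Log2 difference, dabigatran minus diet, of the 34 tested proteasome genes on the log2(FPKM + 0.5) scale; bars are 95% intervals from limma (2 dabigatran and 3 diet libraries) and dashed lines mark 2-fold changes. Only the intervals of Psmc1, Psmc5 and Psmd9 leave out 0, and those of Psmc5 and Psmd9 alone reach past 2-fold.

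Most members differed in the same direction between libraries of the same group. Relative to the diet mean, the median of the 34 members on the log2 scale was -0.05 in dabigatran replicate 1 and 0.24 in dabigatran replicate 2, and it was -0.12, 0.06 and 0.03 in diet replicates 0, 1 and 2. The corresponding medians over all tested genes were 0.01 and 0.04 with dabigatran and 0.00, 0.00 and 0.01 with diet alone. Dabigatran replicate 2 exceeded dabigatran replicate 1 in 32 of 34 members (52.9% of all tested genes), and was the highest of the 5 libraries in 21 of 34 (29.0% of all). Diet replicate 0 was the lowest in 18 of 34 (17.6% of all). The median difference between the groups, 0.12, was smaller than that between the dabigatran libraries. By class, dabigatran replicate 2 lay at 0.46 for the ATPase, 0.26 for the core beta, 0.22 for the non-ATPase and 0.10 for the core alpha genes, while dabigatran replicate 1 lay at -0.02, -0.05, 0.03 and -0.09. The summed FPKM of 8 hepatocyte markers was 31680 and 44550 in dabigatran replicates 1 and 2, against 28810 to 31320 with diet alone. It was thus also highest in dabigatran replicate 2, where Alb (27250 FPKM) and Apoa1 (10690) made up most of it. Ttr was lowest in that library (1518) and Apob was not highest there (639.7), while the other markers were. The part of this sum in the members' shift was not tested. In bulk liver, fewer cells of a type and less RNA per cell cannot be told apart.

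**Figure D3:**
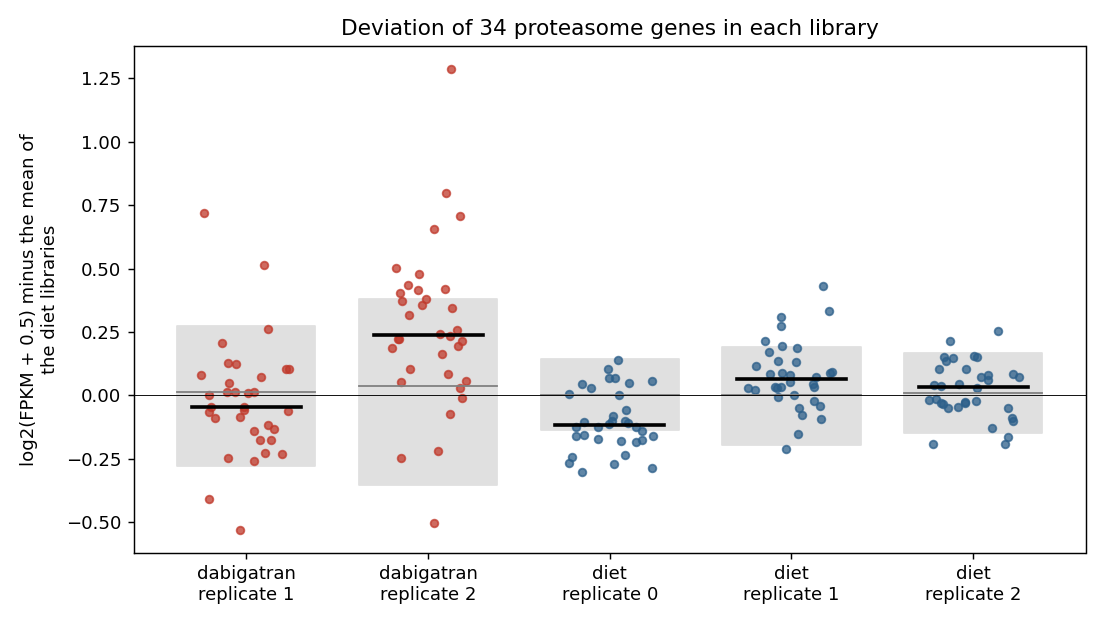
Log2(FPKM + 0.5) of the 34 tested proteasome genes minus the mean of the diet libraries, per library; points are genes, black lines their medians, grey boxes and lines the quartiles and median of all tested genes. The median is 0.24 in dabigatran replicate 2 and -0.05 in dabigatran replicate 1, beside -0.12 to 0.06 in the diet libraries.

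The interferon-inducible counterparts of the catalytic subunits had lower means with dabigatran, without passing over all genes. Psmb8 had 8.62 and 2.02 FPKM with dabigatran and 15.9, 16.9 and 18.1 with diet alone, on 19 and 4 fragments and 41, 33 and 45 fragments (limma adjusted p = 0.118). Psmb10 had 7.37 and 1.44 FPKM with dabigatran and 8.55, 8.30 and 13.1 with diet alone (limma adjusted p = 0.257). Its values rest on 17 and 3 fragments with dabigatran and 23, 17 and 34 with diet alone. Psmb9 had 8.49 and 9.42 FPKM with dabigatran and 25.8, 8.69 and 25.3 with diet alone (limma adjusted p = 0.329). These rest on 11 and 11 fragments with dabigatran and 39, 10 and 37 with diet alone. Dabigatran replicate 2 was the lowest library for Psmb8 and Psmb10, the reverse of its place among the constitutive genes. Lymphocyte markers summed to 7.95 and 3.09 FPKM with dabigatran and 7.76 to 9.16 with diet alone (8 genes, Cd8a at 0 throughout), also lowest in dabigatran replicate 2. More than any other of the 8, the general leukocyte gene Ptprc made up this sum, with 4.54 and 2.63 FPKM with dabigatran and 3.73, 5.11 and 5.34 with diet alone, and it was the only one of them above the filter. The Kupffer marker sum was lowest in dabigatran replicate 2 as well (354 and 209.6 FPKM with dabigatran, 248 to 330 with diet alone, 10 genes). Of these genes, Emr1, Cd68, Csf1r, Timd4, Lyz2 and Cd5l were lowest in that library, while Clec4f, Vsig4, Marco and Itgam were not. The part of either cell type in the values of the immunoproteasome genes was not tested. Each of these subunits takes the place of a constitutive one in the core: Psmb8 that of Psmb5, Psmb9 that of Psmb6, Psmb10 that of Psmb7.

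The log2 ratio of Psmb8 to Psmb5 was -2.69 and -4.88 with dabigatran and -1.69, -1.74 and -1.80 with diet alone. The groups did not overlap, and the mean difference was -2.04 (exact permutation test over libraries, two-sided p = 0.1, the smallest that 10 arrangements allow, 0.15 adjusted over 3 pairs). For Psmb10 to Psmb7 the ratios were -4.06 and -6.25 with dabigatran and -3.88, -3.91 and -3.21 with diet alone, a difference of -1.49 (exact permutation test, two-sided p = 0.1, adjusted 0.15). Without dabigatran replicate 2 these differences were -0.94 and -0.40. For Psmb9 to Psmb6 the groups overlapped, with -2.01 and -2.38 under dabigatran and -0.86, -2.58 and -1.06 under diet alone (difference -0.69, exact permutation test, two-sided p = 0.4, adjusted 0.4). Here diet replicate 1 was the lowest library, and the difference was -1.24 without it, -0.37 without diet replicate 0 and -0.47 without diet replicate 2.

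**Figure D4:**
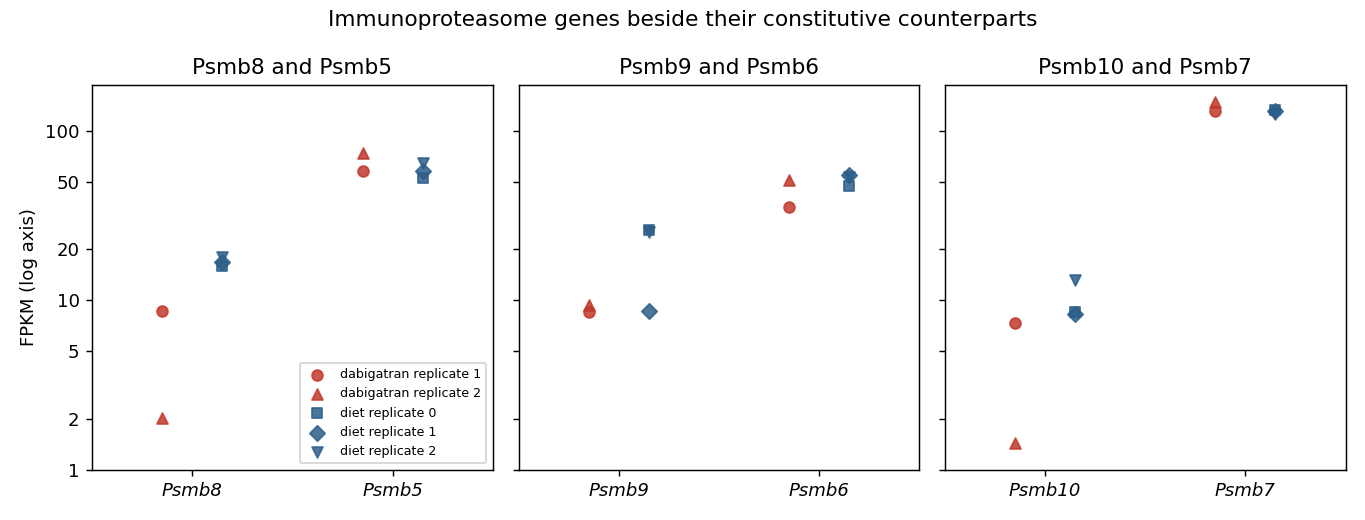
FPKM (log axis) of each immunoproteasome gene (left in each panel) and the constitutive gene it replaces (right), with 1 point per library, dabigatran in red to the left of diet in blue. Psmb8 is below the diet range in both dabigatran libraries (8.62 and 2.02), while Psmb5 overlaps.

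Other genes of the pathway were taken from lists, and 0 of their 49 tested genes, the immunoproteasome genes included, passed over all genes, a count that says little beside 0.429% of all tested genes. Of 5 activator and inhibitor genes, Psme2, a subunit of the interferon-inducible cap PA28, had 46.9 and 32.1 FPKM with dabigatran and 82.6, 64.1 and 77.0 with diet alone (log2 difference -0.92 ± 0.22, SE, limma adjusted p = 0.104). Its groups did not overlap, and 28.3% of its windows are shared, mostly with Psme2b. Its partner Psme1 had 65.9 and 39.3 FPKM with dabigatran and 64.3, 74.3 and 65.4 with diet alone (limma adjusted p = 0.434), and Psme3 had a log2 difference of 0.22. The list's median was 0.10.

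The transcription factor gene Nfe2l1 had 24.2 and 16.1 FPKM with dabigatran and 31.7, 31.0 and 30.5 with diet alone. Nfe2l2 had 16.5 and 15.8 FPKM with dabigatran and 27.6, 19.9 and 32.7 with diet alone. In both genes the dabigatran values were below all diet values, with log2 differences of -0.64 ± 0.21 and -0.68 ± 0.23 (SE, limma adjusted p = 0.208 and 0.219), but neither passed. Ngly1, which encodes the deglycosylase that acts on NFE2L1, had -0.37, and the list of 6 regulators had a median of -0.23. Without dabigatran replicate 2 the difference of Nfe2l1 was -0.35.

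Of 5 core assembly genes, the maturation factor gene Pomp had 111 and 155 FPKM with dabigatran and 163, 147 and 173 with diet alone (log2 difference -0.29 ± 0.20, SE, limma adjusted p = 0.514), with overlap, and Psmg2 and Psmg3 had -0.26 and 0.25; the list's median was -0.11. There were 9 other cap subunits and associated factors (median 0.05). Of these, the ubiquitin receptor gene Adrm1 had 42.6 and 63.6 FPKM with dabigatran and 40.1, 29.3 and 42.8 with diet alone (limma adjusted p = 0.374). In Adrm1, 25.7% of the windows are shared, mostly with Gm9774. The deubiquitinase gene Uchl5 and Zfand5 had log2 differences of -0.40 and -0.27. Among 6 ubiquitin and activating enzyme genes (median 0.09), the polyubiquitin gene Ubb had 178 and 174 FPKM with dabigatran and 228, 213 and 248 with diet alone (log2 difference -0.38 ± 0.16, SE, limma adjusted p = 0.307), Rps27a had 0.27 and Uba1 0.19. The groups did not overlap for Ubb, and 48.1% of its windows are shared, mostly with Gm1821.

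The shuttle genes, whose products carry ubiquitinated proteins to the proteasome, had positive differences in 6 of 6 tested (median 0.29), against 51.9% of all tested genes. The remaining gene, Ddi1, was listed at 0 in every library. Ubqln4 had 9.45 and 10.0 FPKM with dabigatran and 6.48, 6.06 and 6.71 with diet alone (log2 difference 0.57 ± 0.20, SE, limma adjusted p = 0.229), and Ubqln2 had 0.46. In neither gene did the groups overlap, as in 34.4% of all tested genes. The COP9 signalosome is built on the same plan as the lid. Its 9 genes had a median log2 difference of -0.09, beside 0.07 for the lid genes, and the groups overlapped in all 9; Cops7a, Cops4 and Cops3 had -0.35, -0.18 and 0.19. The difference between both complexes was not tested.

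Whole-library measures were as follows. The number of genes at 1 FPKM or more was 10006 to 10399 per library, and depth relative to diet replicate 0, read from the steps of low values, was 0.761 to 0.967. Of the 34 tested members, 32 (not Psmb5 and Psmd10) could be expressed in whole fragments, 20 to 337 per library with a median of 141. The spread of these 32 genes between the diet libraries had a median coefficient of variation of 10.0%, against 8.3% for counting error alone at these fragment numbers. Markers of sinusoidal endothelium summed to 125 and 121 FPKM with dabigatran and 129 to 134 with diet alone (8 genes). Of these 8 endothelial markers, 6 had both dabigatran values above all diet values (17.2% of all tested genes), and Clec4g and Fcgr2b had them below (17.2%). For 2 of the 6 the margin was narrow. The lower dabigatran value and the highest diet value were 9.37 and 9.30 FPKM for Oit3 and 7.30 and 7.27 for Cdh5. Stellate markers summed to 95 and 100.2 FPKM with dabigatran and 95.8 to 141 with diet alone (8 genes), and cholangiocyte markers to 38.9 and 11.1 with dabigatran and 32.8 to 51.9 with diet alone (5 genes). The adipocyte markers Plin1 and Lep were listed at 0 in every library. All 8 hepatocyte markers were tested, with Alb at 18530 and 27250 FPKM with dabigatran and 18650 to 21820 with diet alone.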

How the data were processed

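Total RNA of snap frozen liver was sequenced after TruSeq library preparation, per the labels' protocols. The deposited tables hold FPKM per gene symbol, per the file headers. The submitters' processing notes list, without roles, the builds mm10 and GRCm38 and the tools TopHat, TopHat2 2.0.4, CASAVA, R 2.15.1 and Cuffdiff. How strand and multiply matching reads were handled is not stated there. FPKM scales with the library total, so a few abundant genes can lower all others.

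Tested genes had 1 FPKM or more in 3 or more of 5 distinct libraries (10247 genes). On log2(FPKM + 0.5), which understates changes of low genes, dabigatran was compared with diet by lmFit and eBayes with a variance trend (limma 3.58.1, R 4.3.3), two-sided. P-values were adjusted by Benjamini-Hochberg over all tested genes, with 0.05 as threshold. They set the group difference against the spread between these samples within groups, which is shrunk towards a trend over all tested genes. Fragments are the smallest whole numbers, up to 1000, that give the ratios between libraries (relative tolerance 2e-05); they were found for 80.6% of tested genes and for 2.0% of 500 genes with randomly shifted values, cover counting error only, and true numbers may be a multiple. Coordinates and sequences are RefSeq's (GRCm38.p6), and shared windows and overlaps were computed from GENCODE M21.

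Members, lists and tests were chosen with earlier results of these data known. Values per library are given for called members, the 3 smallest p of each class, Psmb5, Psmb6 and Psmb7, untested members and the highest and lowest, and, in each pathway list, up to 3 genes by p are named beside the immunoproteasome genes, Nfe2l1, Nfe2l2, Pomp, Psme1 and Psme2. Values of Psmd5 and Psmd14 were added after they were seen. A result that this rule names in the shuttle list is not reported here. Alternatives were pseudocounts of 0.1 and 1, no filter or 5 FPKM, no variance trend, quantile normalization, median centring, a block on the replicate number and leaving out each library.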

Additional observations from a re-analysis of the deposited data

How the results depend on the processing

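Leaving out a diet library gave 0 proteasome members called by limma. A fit without a dabigatran library leaves 1 library in that group, so its calls of members are not given. The other alternatives called 0 members, with 2 to 3 at an unadjusted p under 0.05. When a library was left out, the median log2 difference ranged from -0.05 to 0.24 over all members, -0.02 to 0.46 over ATPase, -0.05 to 0.26 over core beta and 0.03 to 0.22 over non-ATPase genes (lowest without dabigatran replicate 2, highest without dabigatran replicate 1), and from -0.09 to 0.15 over core alpha genes (highest without diet replicate 1). Positive differences were found in 15 of 34 members without dabigatran replicate 2, in 20 without diet replicate 0, in 29 with quantile normalization and in 26 with median centring. A lone dabigatran library is assumed to vary like the others.

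Over all genes, 13 were called higher and 31 lower. With a pseudocount of 0.1 these counts were 6 and 17, and with no filter or no variance trend 0 and 0. A filter at 5 FPKM gave 8 higher and quantile normalization 16 lower. Leaving out a library gave 0 to 95 higher and 0 to 199 lower; the cause was not tested. Without dabigatran replicate 1 the log2 differences of Psmb8, Psmb10 and Psme2 were -2.8, -2.4 and -1.19. They were -0.94, -0.38 and -0.66 without dabigatran replicate 2. Each of these fits has 1 dabigatran library, and dabigatran replicate 2 held 4 fragments of Psmb8 and 3 of Psmb10. Psmb9 passed without diet replicate 1 (limma adjusted p = 0.0128). The 3 log2 ratios kept their sign with both other pseudocounts and without each library, the settings run for them.

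The correlations of same-numbered deviations were -0.04 and -0.03, which with 2 dabigatran libraries cannot show whether the replicate numbers pair the samples. With the replicate block, 5 genes were called higher and 8 lower, 0 of them members, 20 of 34 members were positive and the core alpha median was -0.05. Diet replicate 0 has no partner in this block, so its log2 differences are those found without diet replicate 0 and add no separate check of direction. With 2 dabigatran libraries the median SE of a member's log2 difference was 0.20, so a true difference in a member may have gone uncalled. The unadjusted intervals mark no limit of detection, since those of Psmc1, Psmc5 and Psmd9 leave out 0 and none of these genes passed.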
